A study of Mus musculus with 145 samples.

Results

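Mast cells of the peritoneal cavity were compared with eosinophils of the blood, in 7 of the 145 arrays of a compendium of sorted mouse immune cells. The arrays were chosen by title alone: 4 titled MC.PC (numbered 0, 4, 5 and 6) and 3 titled Eo.BL.v2 (numbered 2, 3 and 5). A single array of blood basophils, BA.Bl, is given beside them as levels only, because it has no replicate. All 8 arrays are of RNA from male mice of the C57 Black 6 strain, for which the labels name no treatment and no engineered allele. Strain was written B6 for MC.PC 0, C57/Bl6 for MC.PC 4, 5 and 6 and for BA.Bl, C57BL/6J for Eo.BL.v2 2 and 3, and C57BL/6 for Eo.BL.v2 5. Mice were 6 weeks old for the mast cells and basophils, and 44, 48 and 50 days old for the eosinophils in the order of the array numbers. Arrays of skin, muscle and digested peritoneal mast cells and of fat eosinophils are given further on as levels. Mice of these mast cell arrays were also 6 weeks old, and the age for fat eosinophils lay within the range of the blood eosinophils. MC.PC 4, 5 and 6 were sorted by flow cytometry as CD45+ CD117+ FcER1a+ cells, CD117 being the receptor Kit and FcER1a the chain of the IgE receptor that binds IgE. MC.PC 0 carries only the entry Mast+ as marker, an unfilled entry for exclusion and dissection in place of sorting as its separation method. The labels of MC.PC 5 and 6 give blood as the source although their title places them in the peritoneal cavity, so the source of these 2 arrays rests on conflicting labels. Eosinophils were sorted as SiglecF+ cells of high side scatter, with CD4 and B220 as exclusion markers, and with MHCII excluded as well for Eo.BL.v2 2 and 3 but not for 5. Basophils were sorted as CD49b+ FcER1a+ cells with T cell, B cell and NK cell antigens excluded. Each cell type was sorted on its own and the labels give no date or batch, so sort, laboratory handling and cell type cannot be told apart. The labels do not name the animals behind each array; ages differ between the eosinophil arrays and not between the mast cell arrays. The p-values below reflect the spread among these particular arrays and nothing wider. With 4 and 3 arrays, the number of arrays limits the precision.

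Mast cells and eosinophils are effector cells of type 2 immunity that are recruited and armed in different ways. Mast cells mature in tissue under the growth factor that binds Kit, store proteases, histamine and serotonin on heparin in their granules, and release them when IgE on the receptor FcεRI meets antigen or when a peptide engages an Mrgpr receptor. Eosinophils mature in the bone marrow under interleukin-5, circulate in blood, enter tissue along eotaxins that bind the receptor CCR3, and carry cationic granule proteins and an oxidase that makes superoxide. Both make lipid mediators from arachidonic acid.

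The values are probe set intensities on a linear scale, and differences were taken on the log2 scale as MC.PC minus Eo.BL.v2. A difference is given below as its size in favour of the higher group, with the SE of the limma fit, and the word called marks an adjusted p below 0.05 (Benjamini-Hochberg over all probe sets tested). As a mark of background, Xist, an RNA that male cells lack, lay at 58.0 or below in all 8 arrays. Where all arrays of a group lie at or below that level, the log2 difference depends on background. A lower bound of the fold is then given beside it, from the mean log2 level of the other group against that level. The bound holds for the group mean, and a single array can lie closer to background.

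Array medians lay between 124 and 141. Across all probe sets, arrays correlated with r from 0.967 to 0.992 within MC.PC, from 0.922 to 0.945 within Eo.BL.v2, and from 0.822 to 0.868 between the groups. The closest pair was MC.PC 4 and 6, although their source labels differ. Among 13964 probe sets tested, the number lying over 2-fold from the mean of the other arrays of the group was 287, 47, 374 and 70 for MC.PC 0, 4, 5 and 6, and 426, 957 and 452 for Eo.BL.v2 2, 3 and 5. MC.PC 5 was mostly low there (353 of 374) and so was Eo.BL.v2 3 (774 of 957). The mean of MC.PC 5 and 6 was over 2-fold from the mean of MC.PC 0 and 4 for 32 probe sets. MC.PC 5 was the lowest of its group for 1296 of the 2291 probe sets called higher in mast cells by at least 2-fold, and Eo.BL.v2 3 for 694 of the 1155 called higher in eosinophils by at least 2-fold.

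The sort markers and the lineage markers were read first, as a check of the labels. Kit measured 8207, 10071, 7947 and 10075 on MC.PC 0, 4, 5 and 6, and 217, 159 and 288 on Eo.BL.v2 2, 3 and 5. Fcer1a, which encodes the IgE-binding chain, measured 7155, 8080.4, 8576 and 8069.8 in mast cells and 42.7, 28.9 and 30.4 in eosinophils. Siglecf, which encodes the eosinophil sort marker, measured 1856, 952 and 1582 in eosinophils and 176, 176, 203 and 166 in mast cells. The groups did not overlap for any of these 3 genes, and this held for the array with unfilled sort entries and for both arrays with blood as source. Such a lack of overlap was found for 43.3% of all probe sets tested. Ptprc, the gene of CD45, was present in both groups, at 1662, 2268, 1756 and 2239.6 in mast cells and 5550.1, 4157 and 5428 in eosinophils. Itga2, the gene of the basophil sort marker CD49b, measured 1464 to 2294 in mast cells and 1298 to 2211 in eosinophils, so it did not separate them. Ccr3 measured 8793, 7716 and 7912 in eosinophils against 66.5, 59.0, 81.6 and 60.3 in mast cells. Over the whole marker lists, all 13 mast cell markers measured were called higher in mast cells, and 8 of 9 eosinophil markers were called higher in eosinophils, the ninth, Epx, being too dim to be tested. Summed over its list, the mast cell markers reached 68668 to 81561 in MC.PC and 1315 to 2935 in Eo.BL.v2, and the eosinophil markers 685 to 905 and 13662 to 20341. The groups did not overlap on these sums, and Cpa3, a mast cell marker whose level in eosinophils differed 28.2-fold between arrays, is described below.

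Of 13964 probe sets tested, 5656 (40.5%) were called, 3823 (27.4%) higher in mast cells and 1833 (13.1%) higher in eosinophils. The counts of the gene lists below are to be read against these shares, and no list was tested as a set. A member can pass the intensity filter through its brighter group alone, so a shared direction among members that passed is a description only. At least 2-fold differences made up 3446 of these (24.7% of the tested), 2291 (16.4%) higher in mast cells and 1155 (8.27%) higher in eosinophils. For 6044 probe sets (43.3%) the 2 groups did not overlap. The median log2 difference was 0.11 over the probe sets tested and -0.09 over all 19752 genes measured. The split depended on scaling: with quantile normalization of the 7 arrays, 3191 probe sets were called higher in mast cells and 2540 higher in eosinophils, and the median difference over all probe sets moved from -0.11 to -0.04. Without the 2 arrays whose source label is blood, 4289 probe sets were called, 1206 of them higher in eosinophils, and 4174 of the 5656 were among them in the same direction, none in the opposite one.

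**Figure D1:**
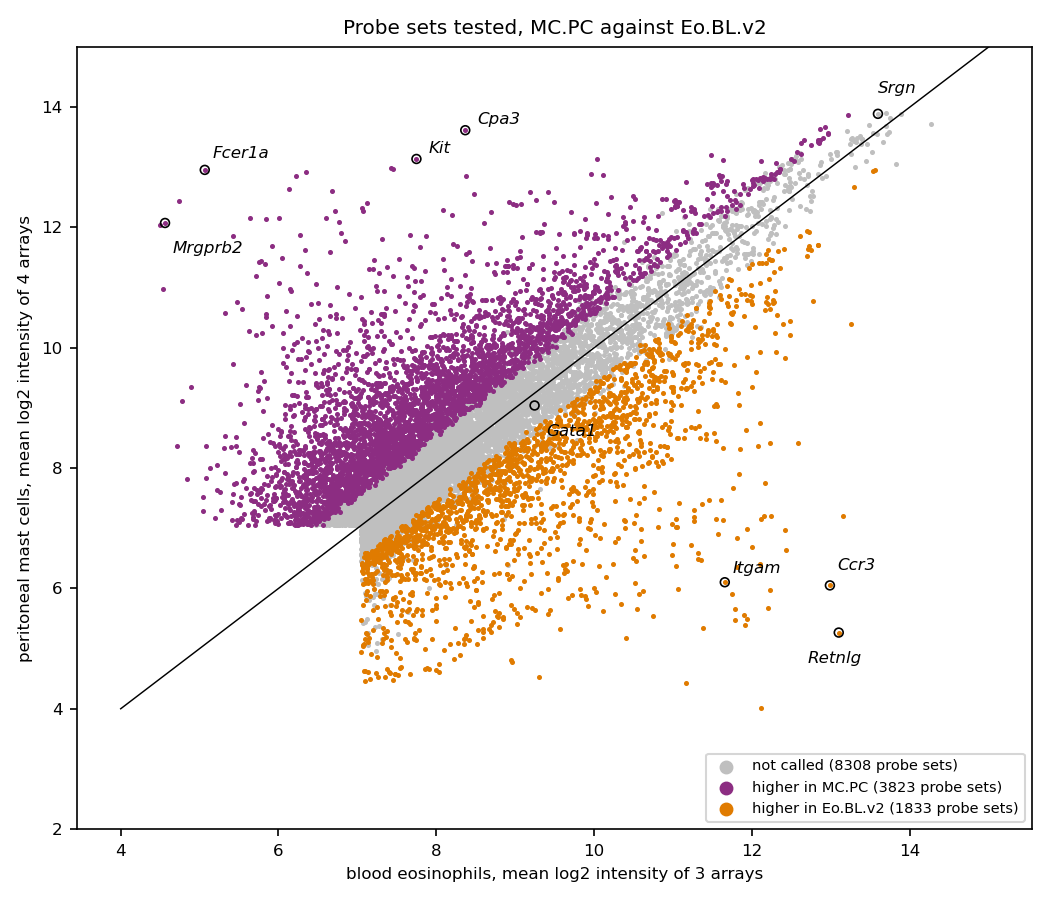
Mean log2 intensity of each of 13964 probe sets tested, in 3 arrays of blood eosinophils (horizontal axis) and 4 arrays of peritoneal mast cells (vertical axis), with the line of equal level. Coloured points were called, 3823 higher in mast cells and 1833 higher in eosinophils, and named genes are circled: Fcer1a, Mrgprb2, Kit and Cpa3 lie far above the line, Ccr3, Retnlg and Itgam far below it, and Srgn and Gata1 near it.

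The 12 genes with the largest log2 differences in favour of mast cells were Fcer1a, Mrgprb1, Rgs13, Mrgprb2, Mcpt4, Gpr141b, Maob, Tph1, Mrgprx2, Ms4a2, Cma1 and Meis2, with differences from 7.89 down to 6.14. They comprise 2 chains of the IgE receptor (Fcer1a and Ms4a2), 3 receptors of the Mrgpr family, a pair of chymases (Mcpt4 and Cma1), enzymes of serotonin synthesis and amine breakdown (Tph1 and Maob), a regulator of G protein signalling (Rgs13), an orphan receptor (Gpr141b) and a homeobox transcription factor (Meis2). Rgs13 measured 3830.4, 4332, 4561 and 4118 in mast cells and 26.8, 22.6 and 19.2 in eosinophils, a log2 difference of 7.53 ± 0.20 (SE), adjusted p = 4.1e-10, which is at least 72.4-fold over background. Gpr141b measured 6387, 8914, 7046 and 9201 in mast cells and 100.3, 119 and 45.4 in eosinophils, a difference of 6.58 ± 0.31 (SE), adjusted p = 2.5e-08. Only genes whose 2 groups did not overlap could enter these 12. The order depends on background for the 6 of them at background in eosinophils (Fcer1a, Mrgprb1, Rgs13, Mrgprb2, Mrgprx2 and Ms4a2). For Mrgprx2 the bound is 5.12 on the log2 scale, below the differences of Ccl2 and Rab27b, which are not among the 12 and are given further on.

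The 12 genes with the largest log2 differences in favour of eosinophils were Retnlg, Ccr3, Adgre4, Adgre1, Clec12a, Cyp4f18, F5, Ccl6, C3ar1, Cybb, Mmp9 and Itgam, with differences from 7.83 down to 5.55. Retnlg, which encodes a secreted resistin-like protein of myeloid cells, measured 9254, 9510.3 and 7702 in eosinophils and 42.6, 35.3, 39.7 and 36.8 in mast cells, a difference of 7.83 ± 0.19 (SE), adjusted p = 4.1e-10, which is at least 151-fold. Adgre1, which encodes the antigen F4/80, measured 5097, 3859 and 5357 in eosinophils and 55.3, 53.8, 48.5 and 48.2 in mast cells, at least 81.4-fold. Its relative Adgre4 measured 2659.8, 1928 and 2374 in eosinophils and 21.6, 19.7, 25.1 and 20.2 in mast cells, at least 39.6-fold. F4/80 is used as a macrophage antigen and is also known on mouse eosinophils. F5, the gene of coagulation factor V, measured 4523, 2207 and 4444 in eosinophils and 50.4, 48.2, 50.9 and 51.6 in mast cells, a difference of 6.14 ± 0.26 (SE), adjusted p = 1.2e-08, at least 61.0-fold. Mmp9, a gelatinase stored by granulocytes, measured 5042, 3158 and 5318 in eosinophils and 78.1, 94.6, 89.1 and 78.5 in mast cells, a difference of 5.70 ± 0.22 (SE), adjusted p = 7.9e-09. These 12 were likewise picked only among genes whose 2 groups did not overlap. The order depends on background here too, for Retnlg, Adgre4, Adgre1, Clec12a and F5, and the bound for Adgre4 is 5.31 on the log2 scale.

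**Figure D2:**
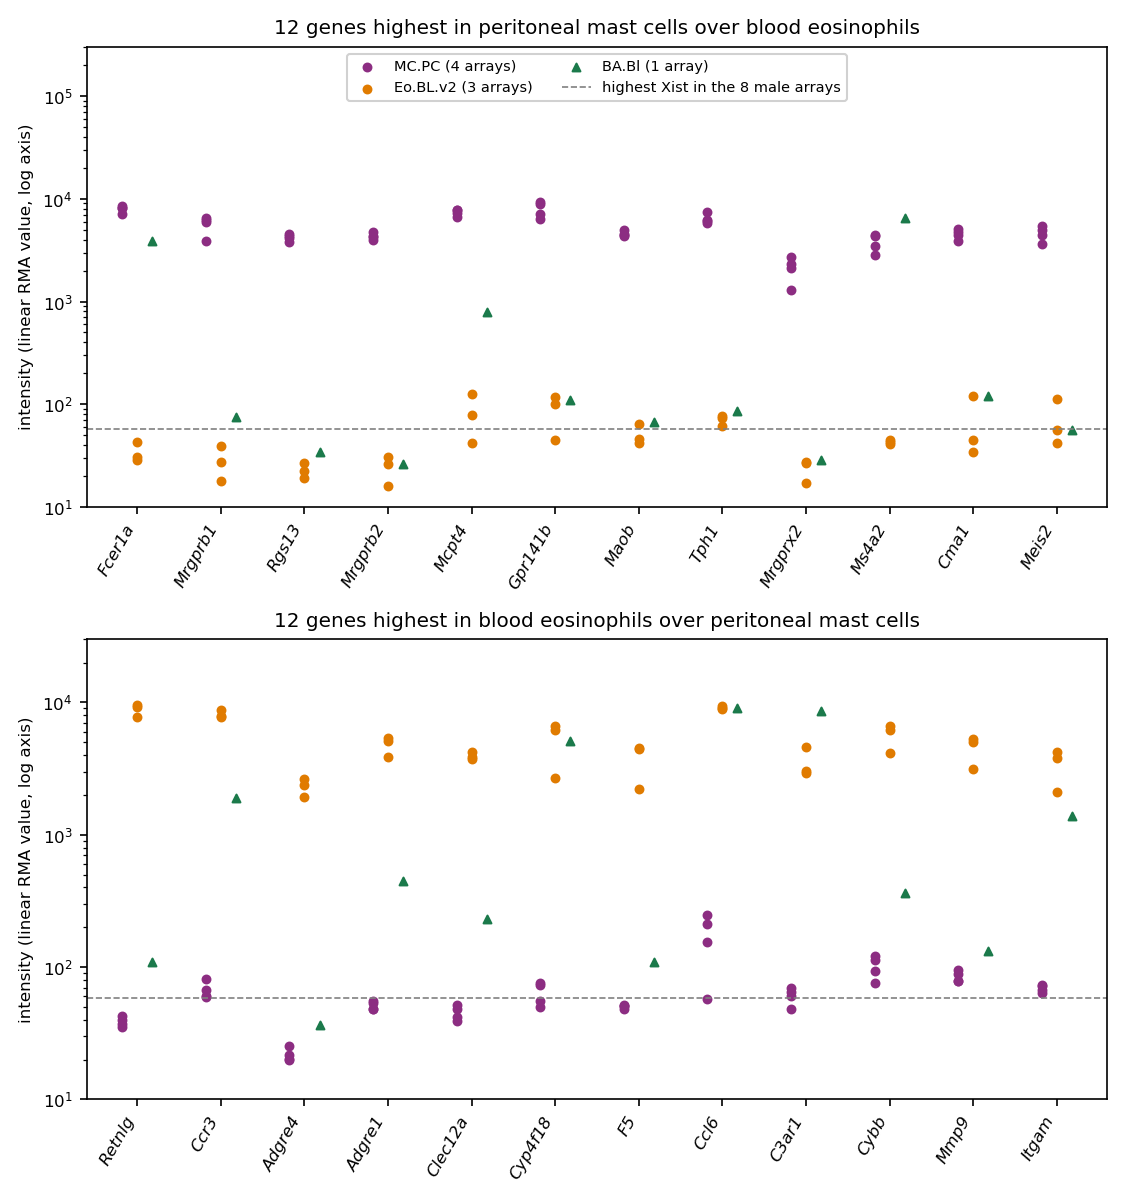
Intensity on each array, on a log axis, of the 12 genes with the largest called difference in each direction: 4 mast cell arrays, 3 eosinophil arrays and 1 basophil array, with the highest Xist level as a dashed line. The 24 genes were picked among those whose 2 groups did not overlap, which held for 43.3% of the probe sets tested. The basophil array is nearer the mast cells for 3 of the 12 mast cell genes (Fcer1a, Ms4a2 and, close to the midpoint, Mcpt4). It is nearer the eosinophils for 5 of the 12 eosinophil genes (Ccl6, C3ar1, Cyp4f18, Itgam and Ccr3).

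The bases before the start sites of 6 lineage genes are shown because they carry, or lack, the letters AGATAA, a form of the motif that GATA factors are known to bind in both lineages. Each run holds the 250 bases before the start site in RefSeq, build GRCm38.p6, read 5′ to 3′ in the direction of the gene. Capitals mark AGATAA on the printed strand or its reverse complement TTATCT.
Fcer1a (chr1:173227230-173227479, minus strand): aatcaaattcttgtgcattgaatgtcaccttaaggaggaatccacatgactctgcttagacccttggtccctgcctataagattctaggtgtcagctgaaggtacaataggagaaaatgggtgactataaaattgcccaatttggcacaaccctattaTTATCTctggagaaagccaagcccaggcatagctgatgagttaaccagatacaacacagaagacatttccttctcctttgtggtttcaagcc
Ms4a2 (chr19:11623720-11623969, minus strand): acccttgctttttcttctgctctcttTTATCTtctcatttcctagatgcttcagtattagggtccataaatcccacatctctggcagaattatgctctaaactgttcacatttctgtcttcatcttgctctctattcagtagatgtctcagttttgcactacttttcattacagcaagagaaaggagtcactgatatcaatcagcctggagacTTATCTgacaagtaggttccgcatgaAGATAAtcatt
Cpa3 (chr3:20242182-20242431, minus strand): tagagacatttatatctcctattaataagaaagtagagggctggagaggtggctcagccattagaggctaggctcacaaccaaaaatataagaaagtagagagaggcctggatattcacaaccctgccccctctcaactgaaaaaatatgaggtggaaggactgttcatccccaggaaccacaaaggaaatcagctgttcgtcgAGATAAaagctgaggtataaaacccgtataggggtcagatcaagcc
Mrgprb2 (chr7:48558087-48558336, minus strand): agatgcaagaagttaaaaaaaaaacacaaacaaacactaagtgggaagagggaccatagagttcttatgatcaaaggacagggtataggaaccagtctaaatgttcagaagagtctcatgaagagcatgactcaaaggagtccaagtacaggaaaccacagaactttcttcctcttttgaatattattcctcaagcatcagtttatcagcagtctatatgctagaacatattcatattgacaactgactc
Ccr3 (chr9:124021721-124021970, plus strand): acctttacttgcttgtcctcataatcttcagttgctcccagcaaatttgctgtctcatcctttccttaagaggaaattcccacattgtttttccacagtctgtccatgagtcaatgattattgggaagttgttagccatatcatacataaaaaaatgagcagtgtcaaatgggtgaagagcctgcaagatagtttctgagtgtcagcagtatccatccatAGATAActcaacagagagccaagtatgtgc
Il5ra (chr6:106749038-106749287, minus strand): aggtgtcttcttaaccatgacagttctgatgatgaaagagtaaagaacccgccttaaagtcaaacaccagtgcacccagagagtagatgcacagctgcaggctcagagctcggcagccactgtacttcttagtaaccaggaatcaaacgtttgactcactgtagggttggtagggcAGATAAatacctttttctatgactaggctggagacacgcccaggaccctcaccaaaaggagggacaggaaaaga
The first 4 belong to genes high in mast cells and the last pair to genes high in eosinophils. The letters begin 92 bases before the start site of Fcer1a, 224, 37 and 11 bases before that of Ms4a2, 46 before that of Cpa3, 30 before that of Ccr3 and 74 before that of Il5ra, and they do not occur in the window of Mrgprb2. Among all 27025 genes of the promoter table, 10.25% hold the letters on either strand in the same window. Of the 12 genes highest in mast cells 11 were in the table and 3 held them (Fcer1a, Rgs13 and Ms4a2), and of the 12 highest in eosinophils 10 were in the table and 4 held them (Ccr3, Cyp4f18, C3ar1 and Cybb). The motif and the 6 genes were picked with the expression values known, and a match is a description of the letters only.

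The IgE receptor and the signalling chain behind Kit were split between the cells. Of 24 members measured, 21 passed the intensity filter, 10 were called higher in mast cells and 5 higher in eosinophils, with a median log2 difference of 0.13 over the 24. Fcer1a differed by 7.89 ± 0.20 (SE), adjusted p = 4.1e-10, at least 137-fold, and Ms4a2, the signal-amplifying β chain, measured 3490.1, 4302, 2814 and 4444 in mast cells and 43.1, 44.8 and 41.0 in eosinophils, a difference of 6.43 ± 0.21 (SE), adjusted p = 1.7e-09, at least 63.8-fold. The γ chain Fcer1g, which serves other Fc receptors as well, was present in both, at 6802, 9517, 9079.6 and 10179.6 in mast cells and 4666, 4900.3 and 3843 in eosinophils, a difference of only 0.98 ± 0.21 (SE), adjusted p = 0.0027. Kit differed by 5.39 ± 0.23 (SE), adjusted p = 1.4e-08. The adaptors and kinases followed no single direction. The adaptor Lat2 measured 4682, 4271, 3885 and 4409 in mast cells and 341, 358 and 481 in eosinophils (a difference of 3.47 ± 0.20), and the kinase Fyn and the phospholipase Plcg1 were higher in mast cells by 3.42 ± 0.34 and 2.26 ± 0.24. Syk, the kinase that binds the phosphorylated γ chain, was higher in eosinophils, at 2330.0, 1239 and 2868 against 897, 1000.0, 808 and 987, a difference of 1.14 ± 0.27 (SE), adjusted p = 0.0053. The other γ-type phospholipase, Plcg2, was also higher in eosinophils, by 1.55 ± 0.26, and so was Pik3r5, a regulatory subunit of the phosphoinositide 3-kinase downstream of G protein-coupled receptors, by 3.31 ± 0.30 (SE), adjusted p = 5.2e-06. For this pathway, then, the receptor chains and Plcg1 stood on the mast cell side, and Syk and Plcg2 on the eosinophil side.

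The granule proteases were the list with the largest median, 3.57 over 13 members measured, of which 10 passed the filter, 9 were called higher in mast cells and none higher in eosinophils. The chymase gene Mcpt4 measured 7238, 7862, 7821 and 6676 in mast cells and 126, 78.9 and 41.7 in eosinophils, a difference of 6.63 ± 0.31 (SE), adjusted p = 2.5e-08. Cma1, another chymase gene, measured 3909, 4773, 4455 and 5101 in mast cells and 119.8, 45.2 and 34.7 in eosinophils, a difference of 6.31 ± 0.35 (SE), adjusted p = 8.9e-08. The tryptase gene Tpsb2 measured 7502, 8533, 7437 and 9252 in mast cells and 252, 157 and 128 in eosinophils, a difference of 5.57 ± 0.24 (SE), adjusted p = 1.6e-08. Its relatives Tpsab1 and Prss34 differed by 5.07 ± 0.28 and 5.29 ± 0.28, and the membrane-bound tryptase gene Tpsg1 by 2.81 ± 0.34. Tpsb2 and Tpsab1 are near-identical neighbours in the genome, and how far their probes take up each other's RNA was not tested. Ctsg, the gene of cathepsin G, measured 5711, 5065, 3896 and 5086 in mast cells and 214, 289.8 and 1132 in eosinophils, a difference of 3.57 ± 0.45 (SE), adjusted p = 6.3e-05. Mcpt8, known as a basophil protease, was dim in mast cells at 216, 242, 159 and 186, lay at background in eosinophils (24.2 to 53.2, at least 3.42-fold lower) and reached 2731 in the basophil array. Prss34, also known from basophils, was higher in peritoneal mast cells (3215, 3819, 1943 and 4191) than in the basophil array (1022).

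Cpa3, the gene of mast cell carboxypeptidase A, differed widely between the eosinophil arrays. It measured 12645, 11926, 12667 and 13042 in mast cells, within 1.09-fold of each other, but 1428, 498 and 50.6 on Eo.BL.v2 2, 3 and 5. The groups did not overlap, and the log2 difference was 5.25 ± 0.79 (SE), adjusted p = 2.5e-04. It was 3.90 ± 0.35 without Eo.BL.v2 5 and 6.31 ± 0.62 without Eo.BL.v2 2. On the 2 eosinophil arrays with the higher Cpa3 levels, Fcer1a, Ms4a2 and Mcpt8 were at or below 44.8, and Kit was at 217 and 159. The basophil array held Cpa3 at 6601 and Ms4a2 at 6484. Mcpt4, Cma1 and Tpsb2, given above, followed the order of Cpa3 over Eo.BL.v2 2, 3 and 5. Ctsg, in the same list, ran the opposite way, and Kit and Hdc were highest on Eo.BL.v2 5. The summed mast cell markers, at 2935, 1596 and 1315, contain Cpa3, so their order is not separate from it. The part of mast cell or basophil RNA in the Cpa3 levels of eosinophils was not tested. Gzmb, the gene of granzyme B, was also highest on Eo.BL.v2 2, with 1289, 67.8 and 39.7 in eosinophils and 406, 269.8, 231 and 284 in mast cells. It was not called, at 0.94 ± 0.88 (SE), adjusted p = 0.43, and without Eo.BL.v2 2 it was called higher in mast cells by 2.49 (adjusted p = 4.6e-05).

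Genes of amine synthesis and storage were higher in mast cells for all 8 of 10 measured members that passed the filter, with a median of 2.94. Tph1, the rate-limiting enzyme of serotonin synthesis outside the nervous system, measured 6060.2, 6283, 5786 and 7499 in mast cells and 73.2, 76.9 and 61.7 in eosinophils, a difference of 6.50 ± 0.19 (SE), adjusted p = 8.6e-10. Hdc, which makes histamine, measured 2664, 5211, 2995 and 4571 in mast cells and 247, 166 and 315 in eosinophils, a difference of 3.98 ± 0.29 (SE), adjusted p = 8.2e-07, and its level in the basophil array was 5204. The vesicular and plasma membrane amine transporters Slc18a2 and Slc6a4 differed by 5.33 ± 0.27 and 5.56 ± 0.25, and Maob, a mitochondrial enzyme that degrades amines, by 6.52 ± 0.20 (SE), adjusted p = 1.2e-09. The 2 members not tested, Hnmt and Aoc1, encode the enzymes that inactivate histamine, and both were dim in both groups, Hnmt at 27.2 to 35.1 in mast cells and 31.6 to 46.0 in eosinophils and Aoc1 at 47.6 to 62.3 and 46.8 to 93.6.

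Of 21 measured genes of heparin and proteoglycan synthesis, 20 passed the filter, 12 were called higher in mast cells and 2 higher in eosinophils, and the median was 1.29. Srgn, the core protein serglycin that carries the sugar chains, was bright in both cell types, at 14894, 14718, 15445 and 15655 in mast cells and 12808, 12959.6 and 11471 in eosinophils, and was not called, at 0.29 ± 0.18 (SE), adjusted p = 0.22. Several enzymes that build and sulfate heparin on that core differed, while 6 of the 20 members tested, Srgn among them, were not called. Papss2, which makes the sulfate donor, measured 4546, 6179.9, 4762 and 6464 in mast cells and 93.1, 228 and 126 in eosinophils, a difference of 5.29 ± 0.29 (SE), adjusted p = 7.7e-08. Ext1, which polymerizes the chain, differed by 4.79 ± 0.22 (SE), adjusted p = 2.5e-08, and Ndst2, the sulfotransferase known to be needed for mast cell heparin, measured 4429, 6345, 4272 and 6941 in mast cells and 659, 334 and 703 in eosinophils, a difference of 3.32 ± 0.29 (SE), adjusted p = 3.8e-06. Both genes higher in eosinophils, Chst12 and Chst15, encode chondroitin sulfotransferases. Chst12 measured 1817, 1147 and 2007 in eosinophils and 646, 461, 386 and 345 in mast cells, a difference of 1.85 ± 0.27 (SE), adjusted p = 1.9e-04, and Chst15 differed by 0.86 ± 0.26. The chondroitin sulfotransferase gene Chst11 was higher in mast cells, by 1.81 ± 0.25 (SE), adjusted p = 1.4e-04, so these sulfotransferases did not share a direction. Without the 2 arrays with blood as source, and without any of MC.PC 0, Eo.BL.v2 2 or Eo.BL.v2 5, Chst15 was not called (adjusted p from 0.052 to 0.085).

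Receptors of the Mrgpr family were read with other mediator receptors of mast cells, 16 members in all, of which 12 passed the filter, 9 were called higher in mast cells and 1 higher in eosinophils (median 1.14). Mrgprb2, the mouse receptor for basic secretagogues, measured 4349, 3961, 4785 and 4202 in mast cells and 31.0, 26.4 and 16.1 in eosinophils, a difference of 7.51 ± 0.24 (SE), adjusted p = 1.2e-09, at least 74.3-fold. Mrgprb1 measured 3891, 6281, 6489 and 5957 in mast cells and 39.5, 27.3 and 17.9 in eosinophils, a difference of 7.69 ± 0.28 (SE), adjusted p = 5.9e-09, at least 95.5-fold. Mrgprx2, named above and not in that list, measured 1285, 2294, 2105 and 2691 in mast cells and 26.6, 27.4 and 17.2 in eosinophils, at least 34.8-fold. MC.PC 0 was the lowest mast cell array for Mrgprb1 and Mrgprx2 but not for Mrgprb2. Mrgpra4 differed by 4.32 ± 0.35, at least 14.7-fold, with 462, 1245, 629 and 1458 in mast cells. Mrgprb8 and Mrgprb13 were dim in peritoneal mast cells, at 84.6 to 213 and 111 to 155, where 3 arrays of skin mast cells held them at 875 to 980.0 and 2045 to 2668. Mrgprb13 was called (adjusted p = 0.032), but not without the 2 arrays with blood as source (0.056), nor without any of MC.PC 0, 4 and 6 and Eo.BL.v2 2 and 5 (0.070 to 0.11). Members of this family resemble each other in sequence, and cross-hybridization between them was not tested. Of the other mediator receptors, Hrh4, a histamine receptor, differed by 4.45 ± 0.25 (SE), adjusted p = 8.4e-08, and P2rx7, the ATP-gated channel, measured 1662, 2899, 2013 and 3083 in mast cells and 195, 160.0 and 171 in eosinophils, a difference of 3.74 ± 0.24 (SE), adjusted p = 3.5e-07. Ednrb, an endothelin receptor, was the member higher in eosinophils, at 159, 183 and 289.7 against 57.1, 56.2, 68.8 and 58.9.

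Messages for the cationic granule proteins Prg2, Prg3 and Ear6 were higher in blood eosinophils, and Epx was too dim to be tested. Most Ear genes of the list were not analysed here. Of 5 members measured, 3 passed the filter and all 3 were called higher in eosinophils, with a median of -1.50 (MC.PC minus Eo.BL.v2). All 3 lay below the filter level in mast cells, so they could be called in that direction only. Prg2, the gene of major basic protein, measured 178, 179 and 310.1 in eosinophils and 82.6, 68.0, 86.3 and 69.0 in mast cells, a difference of 1.50 ± 0.24 (SE), adjusted p = 3.5e-04. Its relative Prg3 measured 268, 253 and 263 in eosinophils and 98.1, 72.7, 115 and 76.6 in mast cells. Epx, the gene of eosinophil peroxidase, reached only 89.0, 101 and 196 in eosinophils and 58.2, 59.1, 62.4 and 48.7 in mast cells and was not tested. Ear6, an eosinophil-associated ribonuclease, measured 504, 1126 and 943 in eosinophils and 52.7, 50.3, 68.2 and 60.3 in mast cells, a difference of 3.82 ± 0.27 (SE), adjusted p = 6.7e-07. Ear14 lay at 20.2 to 31.3 in eosinophils.

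**Figure D3:**
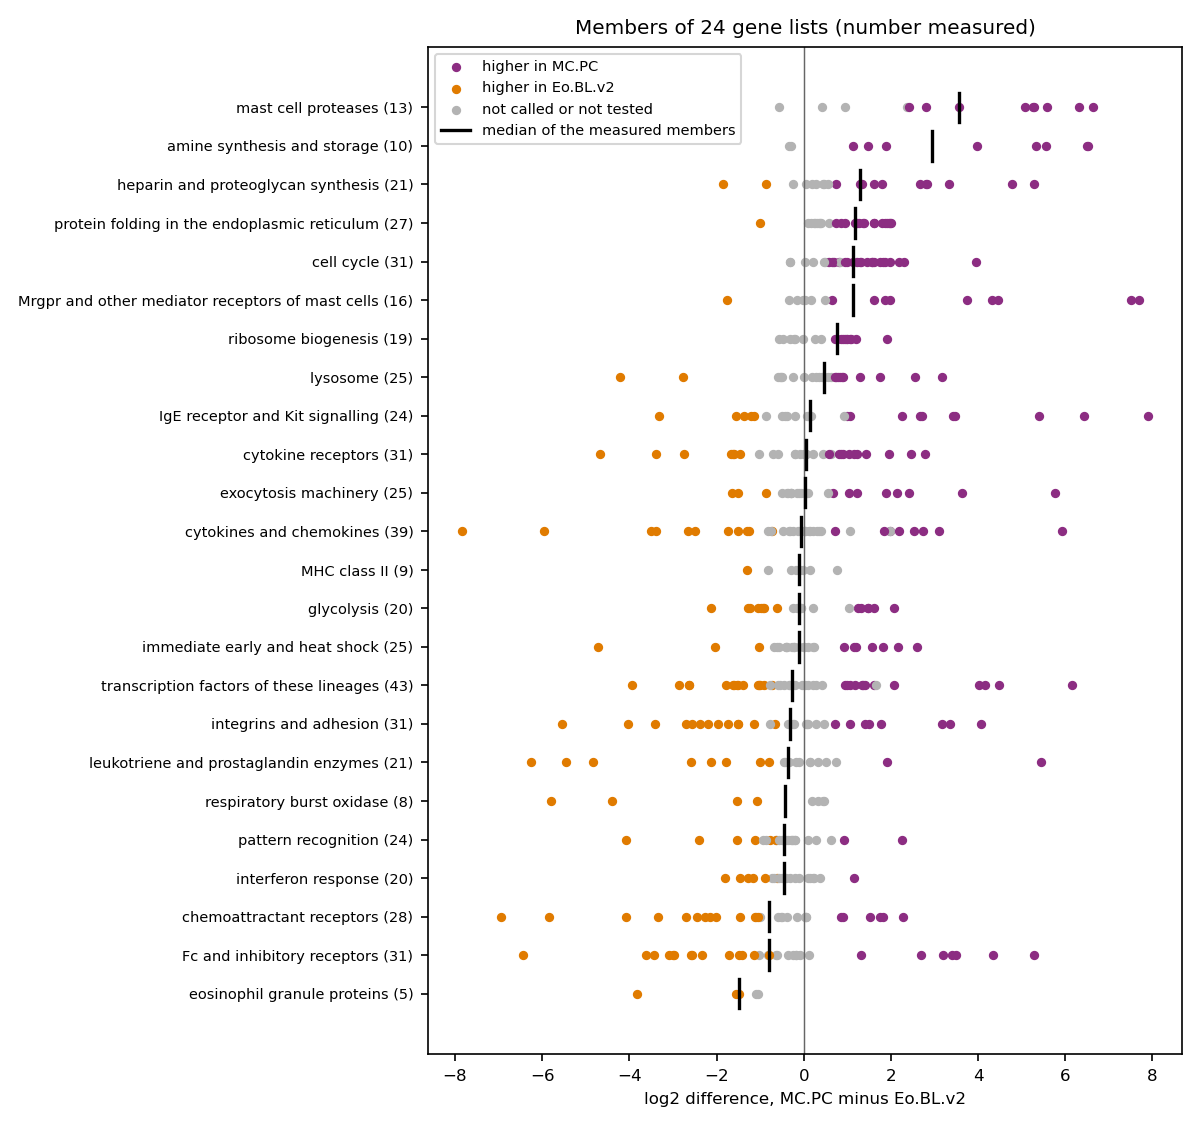
Log2 difference (MC.PC minus Eo.BL.v2) of every measured member of 24 gene lists, ordered by the median of the list, which is drawn as a bar. Purple points were called higher in mast cells, orange points higher in eosinophils and grey points were not called or not tested. The protease and amine lists have the highest medians, 3.57 and 2.94, and the eosinophil granule list the lowest, -1.50.

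Among 31 cytokine receptor genes measured, 27 passed the filter, 11 were called higher in mast cells and 7 higher in eosinophils, with a median of 0.05 that changed sign with quantile normalization. Il5ra, which binds interleukin-5, measured 2319.9, 1237 and 1367 in eosinophils and 77.8, 48.8, 71.7 and 55.2 in mast cells, a difference of 4.66 ± 0.26 (SE), adjusted p = 9.7e-08. Csf2rb, the chain it shares with the receptors of interleukin-3 and GM-CSF, measured 1613, 2354, 1411 and 1981 in mast cells and 2051, 1250.0 and 2229 in eosinophils, overlapping ranges that gave 0.01 ± 0.26 (SE), adjusted p = 0.97. Csf2ra, which binds GM-CSF, was higher in eosinophils by 1.47 ± 0.30 (SE), adjusted p = 0.0021. Csf1r, the receptor of the macrophage growth factor, measured 841, 373 and 1315 in eosinophils, highest on Eo.BL.v2 5, and 73.8, 69.2, 75.5 and 65.5 in mast cells, a difference of 3.39 ± 0.34 (SE), adjusted p = 1.1e-05. On the mast cell side both chains of the interleukin-10 receptor were higher, Il10ra at 739, 832, 372 and 886 against 86.0, 117 and 92.1 (2.78 ± 0.29 (SE), adjusted p = 1.6e-05), and Il10rb by 2.46 ± 0.30 (SE), adjusted p = 5.4e-05.

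Of 28 chemoattractant receptor genes measured, 20 passed the filter, 12 were called higher in eosinophils and 6 higher in mast cells, with a median of -0.80. Ccr3 led, with the values given above and a difference of 6.94 ± 0.20 (SE), adjusted p = 8.6e-10. C3ar1, the receptor of the complement fragment C3a, measured 3021, 4599.9 and 2937 in eosinophils and 69.7, 65.0, 60.2 and 47.8 in mast cells, a difference of 5.84 ± 0.23 (SE), adjusted p = 7.9e-09. Cxcr4, which retains leukocytes in bone marrow, measured 2179, 2407 and 2823 in eosinophils and 161, 109.8, 200.3 and 125 in mast cells, a difference of 4.08 ± 0.24 (SE), adjusted p = 1.3e-07, and Ccr1, a receptor of inflammatory chemokines, 444, 436 and 496 in eosinophils and 36.6, 55.1, 56.0 and 37.0 in mast cells, at least 7.89-fold. Ptafr, the receptor of platelet-activating factor, and Ptgdr2, the prostaglandin D2 receptor CRTH2, differed by 2.69 ± 0.22 and 2.45 ± 0.27 (SE), adjusted p = 2.3e-05. For each of these 6 receptors, every eosinophil array lay above every mast cell array. They were named for their large differences, and the groups did not overlap for 43.3% of all probe sets tested. Among those higher in mast cells was Ptger3, a receptor of prostaglandin E2, at 225, 377, 314 and 345 against 60.7, 78.3 and 54.1, a difference of 2.28 ± 0.23 (SE), adjusted p = 1.2e-05. Fewer cells carrying a receptor and less RNA per cell cannot be told apart in these bulk samples, here or for any other gene.

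Fc and inhibitory receptors were called higher in eosinophils for 14 and in mast cells for 7 of 31 measured members (26 passed the filter, median -0.81). Clec12a, an inhibitory lectin of myeloid cells, measured 3859.7, 4211 and 3728 in eosinophils and 47.8, 41.7, 52.0 and 39.1 in mast cells, a difference of 6.45 ± 0.19 (SE), adjusted p = 8.6e-10, at least 67.7-fold. Siglecf differed by 2.97 ± 0.24 (SE), adjusted p = 2.1e-06 and its relative Siglece by 2.99 ± 0.25 (SE), adjusted p = 2.3e-06. The CD300 genes Cd300ld and Cd300lb differed by 3.43 ± 0.31 and 3.61 ± 0.53, the latter at least 8.94-fold, although Eo.BL.v2 3 held Cd300lb at 149 against 1076 and 871 on the others, and the difference was 4.51 without it. On the mast cell side, Cd200r3, an activating receptor of mast cells and basophils, measured 1457, 1849, 1747 and 1898 in mast cells and 49.3, 53.1 and 33.2 in eosinophils, a difference of 5.29 ± 0.22 (SE), adjusted p = 1.2e-08, at least 29.8-fold. Milr1, the inhibitory receptor allergin-1, Pilra and Cd33 were higher in mast cells by 3.39 ± 0.22, 3.21 ± 0.41 and 2.70 ± 0.28, and for Pilra the difference was 3.82 without Eo.BL.v2 5. The low-affinity IgG receptors were not called: Fcgr3 measured 3304, 3285, 3221 and 2863 in mast cells and 2897, 2615 and 3202 in eosinophils (0.13 ± 0.19 (SE), adjusted p = 0.62), and the inhibitory Fcgr2b 1519.8, 1991, 1619 and 1515 in mast cells and 1764, 2372 and 2235 in eosinophils (-0.35 ± 0.20 (SE), adjusted p = 0.19).

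Enzymes of lipid mediators were called higher in eosinophils for 8 and in mast cells for 2 of 21 measured members (15 passed the filter, median -0.36). The largest differences in each direction lay in different branches, while Alox5 was bright in both cell types. Hpgds, the haematopoietic prostaglandin D2 synthase, measured 1913, 3186, 2967 and 3806 in mast cells and 79.1, 69.0 and 52.3 in eosinophils, a difference of 5.45 ± 0.26 (SE), adjusted p = 2.6e-08. Tbxas1, the thromboxane synthase, measured 3515, 1499.9 and 3155 in eosinophils and 68.1, 111, 107 and 80.0 in mast cells, a difference of 4.83 ± 0.30 (SE), adjusted p = 2.6e-07. Alox15, the 12/15-lipoxygenase, measured 5487, 1704 and 4898 in eosinophils and 94.2, 67.6, 94.3 and 75.7 in mast cells, a difference of 5.45 ± 0.35 (SE), adjusted p = 3.4e-07, and Cyp4f18, which hydroxylates leukotriene B4, 6204, 2693 and 6579 in eosinophils and 72.9, 55.6, 75.7 and 49.8 in mast cells, a difference of 6.26 ± 0.31 (SE), adjusted p = 3.5e-08. Eo.BL.v2 3 was the lowest eosinophil array for all of Tbxas1, Alox15 and Cyp4f18, and still lay above every mast cell array. Within the 5-lipoxygenase branch, Alox5 itself was bright in both, at 4873, 6608, 3112 and 6602 in mast cells and 3510.4, 2128 and 3763 in eosinophils, and was not called (0.74 ± 0.30 (SE), adjusted p = 0.069). It was called higher in mast cells without MC.PC 5, at 0.97 (adjusted p = 0.014). Its partner Alox5ap measured 5574, 5044 and 5843 in eosinophils and 844, 986, 931 and 868 in mast cells, a difference of 2.60 ± 0.18 (SE), adjusted p = 6.3e-07, and Lta4h, which makes leukotriene B4, 2011, 1608 and 2144 in eosinophils and 503, 676, 509 and 544 in mast cells, a difference of 1.78 ± 0.20 (SE), adjusted p = 3e-05. Pla2g4a, which frees arachidonic acid, was higher in eosinophils by 2.13 ± 0.24 (SE), adjusted p = 3.1e-05. Ltc4s, which makes leukotriene C4, was dim on this array in both, at 166 to 222 and 138 to 157, and was not called. Pla2g7, which degrades platelet-activating factor, was bright in both, at 6159, 7428, 7316 and 7996 in mast cells and 6643, 6276 and 6475 in eosinophils (0.15 ± 0.19 (SE), adjusted p = 0.54), and stood at 244 in the basophil array and 66.4 to 135 in skin mast cells.

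**Figure D4:**
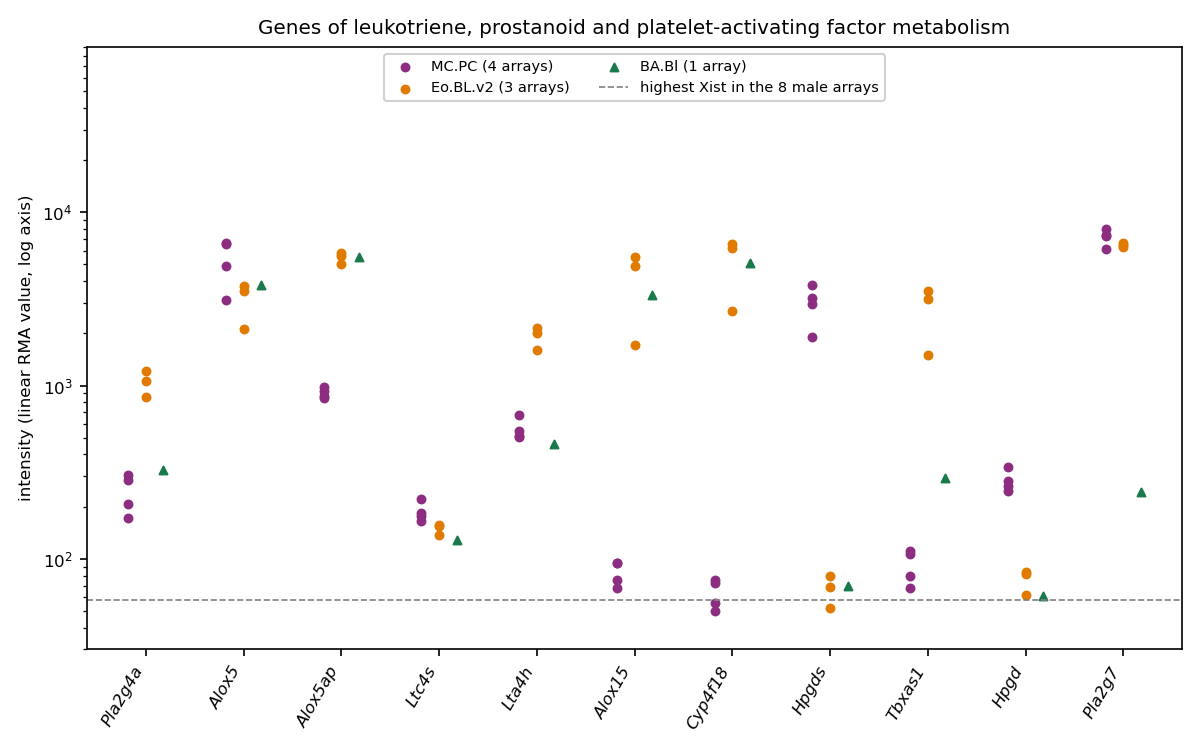
Intensity on each array, on a log axis, of 11 genes of leukotriene, prostanoid and platelet-activating factor metabolism, for 4 mast cell, 3 eosinophil and 1 basophil array, with the highest Xist level dashed. Hpgds and Hpgd are high in mast cells, Alox15, Cyp4f18 and Tbxas1 in eosinophils, and Alox5, Ltc4s and Pla2g7 overlap or nearly overlap.

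Cytokine and chemokine genes went both ways, with 11 higher in eosinophils and 8 higher in mast cells of 39 measured (27 passed the filter, median -0.06, which changed sign with quantile normalization). Ccl6 measured 9056, 9329 and 8971 in eosinophils and 57.2, 249, 211 and 156 in mast cells, a difference of 5.95 ± 0.41 (SE), adjusted p = 5e-07, with MC.PC 0 the lowest. Ccl9, a neighbour of Ccl6 in the same gene cluster, differed by 3.51 ± 0.25 (SE), adjusted p = 6.1e-07. In mast cells the monocyte attractant Ccl2 measured 5901, 6614, 5558 and 6853 against 142, 94.7 and 80.3 in eosinophils, a difference of 5.92 ± 0.23 (SE), adjusted p = 7.5e-09. Ccl7 and Tnf were higher in mast cells by 2.52 ± 0.24 and 3.11 ± 0.22, at 1299, 1366, 1083 and 1761 for Tnf. Il4, the type 2 cytokine, was higher in eosinophils, at 796, 1274 and 1275 against 703, 473, 365 and 308 in mast cells, a difference of 1.31 ± 0.29 (SE), adjusted p = 0.0036. Without the 2 arrays with blood as source the Il4 difference was 0.92 and was not called (adjusted p = 0.052). Csf1 was higher in eosinophils by 1.74 ± 0.27. Il13 and Il5 lay at 184 to 231 and 31.1 to 66.7 in mast cells and at 152 to 233 and 30.8 to 47.7 in eosinophils, with no call, and Il13 reached 5844 to 8273 in skin mast cells.

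Of 43 transcription factor genes measured, 40 passed the filter, 13 were called higher in mast cells and 15 higher in eosinophils (median -0.27). Gata2, needed for mast cells and basophils, measured 3267, 4688, 2574 and 4129 in mast cells and 168, 169 and 142 in eosinophils, a difference of 4.49 ± 0.23 (SE), adjusted p = 5.7e-08. Gata1, needed for eosinophils, overlapped, at 619, 613, 351 and 577 in mast cells and 768, 457 and 637 in eosinophils (-0.20 ± 0.26 (SE), adjusted p = 0.57). Mitf, a regulator of Kit and of tryptase genes, measured 1859, 3548, 2132 and 2930.2 in mast cells and 159.8, 111 and 159 in eosinophils, a difference of 4.16 ± 0.26 (SE), adjusted p = 2.3e-07, and Myb, a factor of haematopoietic progenitors, 3907, 5130.3, 4991 and 5064 in mast cells and 223, 292 and 389 in eosinophils, a difference of 4.01 ± 0.23 (SE), adjusted p = 1e-07. Meis2 measured 3655, 4914, 5399 and 4423 in mast cells and 56.8, 112 and 41.9 in eosinophils, a difference of 6.14 ± 0.30 (SE), adjusted p = 3.5e-08. On the eosinophil side, Cebpe, needed for the late stages of granulocytes, measured 846, 392 and 1213 in eosinophils and 93.5, 83.8, 123 and 109 in mast cells, a difference of 2.87 ± 0.33 (SE), adjusted p = 3.1e-05. Ikzf3 and Gfi1b differed by 3.94 ± 0.26 (SE), adjusted p = 3.6e-07, and 2.64 ± 0.24, and Spi1, the gene of PU.1, measured 4913, 4961 and 5081 against 2678, 1911, 1226 and 1428, a difference of 1.53 ± 0.26 (SE), adjusted p = 5.9e-04. Mast cell arrays were thus bright in Gata2, Mitf, Myb and Meis2, eosinophil arrays in Cebpe, Ikzf3, Gfi1b and Spi1, while the ranges of Gata1 overlapped.

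The genes of the superoxide-producing oxidase were called higher in eosinophils for 4 of 8 measured members, all of which passed the filter, and higher in mast cells for none (median -0.44). Cybb, the catalytic subunit, measured 6589, 4158 and 6214 in eosinophils and 75.8, 121, 113 and 93.6 in mast cells, a difference of 5.80 ± 0.24 (SE), adjusted p = 1.1e-08. Ncf1, an activating subunit of the cytosol, measured 3396, 1864 and 4260.4 in eosinophils and 165, 122, 147 and 136 in mast cells, a difference of 4.40 ± 0.27 (SE), adjusted p = 2.2e-07. The partner subunits Cyba and Ncf4 differed by 1.08 ± 0.24 and 1.53 ± 0.26, and without the 2 arrays with blood as source Cyba was not called (0.83, adjusted p = 0.052). Of 24 pattern recognition genes, 12 passed the filter, 6 were called higher in eosinophils and 2 in mast cells (median -0.45). Tlr13, a sensor of bacterial ribosomal RNA, measured 1267, 1976 and 1295 in eosinophils and 105, 80.7, 90.8 and 77.5 in mast cells, a difference of 4.08 ± 0.22 (SE), adjusted p = 7.7e-08, and Casp1 differed by 2.40 ± 0.20, at least 2.97-fold. Ly96, the partner of Tlr4, was higher in mast cells, at 4864, 4409, 6407 and 2994 against 618, 1533 and 904, a difference of 2.25 ± 0.32 (SE), adjusted p = 1.7e-04, while Tlr4 itself was too dim to be tested, at 55.0 to 121 and 47.1 to 74.0. Of 20 interferon response genes, 15 passed, 6 were called higher in eosinophils and 1, Bst2, in mast cells (median -0.45). The largest of these was Rsad2, an antiviral enzyme, at 1.81 ± 0.22 (SE), adjusted p = 5.1e-05, with 236, 345 and 309 in eosinophils.

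Integrin and adhesion genes also split, with 13 higher in eosinophils and 8 higher in mast cells of 31 measured (26 passed the filter, median -0.31). Itgam, the α chain of Mac-1, measured 3786, 2104 and 4222 in eosinophils and 64.1, 72.7, 71.6 and 66.9 in mast cells, a difference of 5.55 ± 0.25 (SE), adjusted p = 1.7e-08. Itgal, the α chain of LFA-1, and Itgb3 differed by 4.03 ± 0.23 and 3.41 ± 0.30, and Itga4, a chain of VLA-4, measured 5700.2, 4004 and 5672 in eosinophils and 723, 1287, 792 and 1217 in mast cells, a difference of 2.38 ± 0.26 (SE), adjusted p = 1.9e-05. In mast cells Itga9, which pairs with the β1 chain, measured 1237, 2017, 1305 and 2476 against 103, 91.2 and 108, a difference of 4.07 ± 0.26 (SE), adjusted p = 2.9e-07. The tetraspanin Cd81 was higher in mast cells by 3.17 ± 0.25. Itgam and Itgal, whose products bind ICAMs as β2 integrins, were thus both higher in eosinophils, and Itga9 higher in mast cells.

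Of 27 measured genes of protein folding in the endoplasmic reticulum, all passed the filter, 17 were called higher in mast cells and 1 higher in eosinophils (median 1.18). The chaperone Calr measured 4117, 3444, 3348 and 4603 in mast cells and 963, 801 and 1146 in eosinophils, a difference of 2.00 ± 0.21 (SE), adjusted p = 1.6e-05. Its membrane-bound relative Canx measured 5389.6, 5376, 5329 and 6808 in mast cells and 1585, 1362 and 1455 in eosinophils, a difference of 1.96 ± 0.19 (SE), adjusted p = 8.7e-06. The chaperone Hspa5 differed by 1.26 ± 0.37 (SE), adjusted p = 0.018, but was not called without Eo.BL.v2 3 (adjusted p = 0.067) or without the 2 arrays with blood as source (0.10). Sec61a1, the channel through which proteins enter the reticulum, differed by 1.80 ± 0.19 (SE), adjusted p = 1.6e-05, and the exception was its small partner Sec61b, higher in eosinophils by 1.01 ± 0.22 (SE), adjusted p = 0.0028. Of 25 exocytosis genes, 19 passed, 8 were called higher in mast cells and 3 in eosinophils (median 0.03, which changed sign with quantile normalization, where 5 were called higher in eosinophils). Here the 2 Rab27 GTPases, which dock secretory granules, went opposite ways. Rab27b measured 2214, 4327, 2876 and 4372 in mast cells and 55.2, 73.3 and 54.8 in eosinophils, a difference of 5.77 ± 0.27 (SE), adjusted p = 2.4e-08, and Rab27a measured 877, 386 and 1098 in eosinophils and 271, 257, 161 and 246 in mast cells, a difference of 1.65 ± 0.33 (SE), adjusted p = 0.0019. Sytl2, an effector of Rab27, and Snap29 were higher in mast cells by 3.63 ± 0.25 and 1.90 ± 0.19. Of 25 lysosome genes, all passed, 10 were called higher in mast cells and 2 in eosinophils (median 0.46). With quantile normalization 9 were called higher in mast cells and 5 in eosinophils. Ctsc, the protease that activates granule serine proteases, measured 1039, 1519.8, 1143 and 1351 in mast cells and 133, 92.1 and 216 in eosinophils, a difference of 3.17 ± 0.28 (SE), adjusted p = 3.8e-06, and Tpp1 differed by 2.56 ± 0.28. The 2 higher in eosinophils were Ctsh, at 1584, 405 and 1432 against 48.1, 58.1, 55.9 and 47.0 (4.22 ± 0.39 (SE), adjusted p = 6e-06), lowest on Eo.BL.v2 3, without which the difference was 4.86, and Lgmn (2.77 ± 0.24).

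Cell cycle genes were called higher in mast cells for 21 of 31 measured members (28 passed the filter) and higher in eosinophils for none, with a median of 1.14. Ccnd2, a D-type cyclin, measured 2452, 3559, 2193 and 3427 in mast cells and 263, 140.4 and 168 in eosinophils, a difference of 3.95 ± 0.27 (SE), adjusted p = 4.3e-07. Mcm6, a subunit of the replicative helicase, and Mki67, which encodes the proliferation antigen Ki-67, measured 702, 590.0, 538 and 725 and 536, 607, 508 and 663 in mast cells, and differed by 2.29 ± 0.24 and 1.61 ± 0.22. Ccnb2, a mitotic cyclin, measured 2201, 1552, 805 and 1085 in mast cells and 299, 409.6 and 392 in eosinophils, highest on MC.PC 0. Cdk1 was at 1197 on MC.PC 0 but at 341, 262 and 287 on the others, against 165, 135 and 268 in eosinophils, and was not called (1.21 ± 0.46 (SE), adjusted p = 0.054). It was called higher in mast cells without the 2 arrays with blood as source (1.82, adjusted p = 0.019) and without MC.PC 5, MC.PC 6 or Eo.BL.v2 5 alone (0.040 to 0.043). The mast cell array without sort entries was the highest for both mitotic genes. Of 19 ribosome biogenesis genes, 17 passed, 10 were called higher in mast cells and none in eosinophils (median 0.76), among them Dkc1, a subunit of the pseudouridine synthase of ribosomal RNA, by 1.90 ± 0.26 (SE), adjusted p = 1.1e-04, and Npm1, a chaperone of ribosome assembly, by 1.07 ± 0.29. Of 20 glycolysis genes, 18 passed, 6 were called higher in mast cells and 8 in eosinophils (median -0.11). The phosphofructokinase Pfkp was higher in mast cells by 2.08 ± 0.24 (SE), adjusted p = 3.8e-05, and the hexokinase Hk2 and the aldolase Aldoa higher in eosinophils by 2.12 ± 0.36 (SE), adjusted p = 5.9e-04, and 1.28 ± 0.22.

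Immediate early and heat shock genes, which can change while cells are handled, were called higher in mast cells for 7 and in eosinophils for 3 of 25 measured members (24 passed, median -0.11), and for 7 and 5 with quantile normalization. Among all probe sets tested, 27.4% were called higher in mast cells and 13.1% higher in eosinophils, so the 7 and 3 lie near those shares. Btg2, an antiproliferative early response gene, measured 2019.8, 1786 and 4579 in eosinophils and 129.7, 43.8, 151 and 99.4 in mast cells, a difference of 4.73 ± 0.42 (SE), adjusted p = 4.5e-06. The phosphatase Dusp1 measured 7277, 3152 and 8214 in eosinophils and 1848, 1801, 686 and 1683 in mast cells, a difference of 2.03 ± 0.40 (SE), adjusted p = 0.0015, and Egr1 was higher in mast cells, at 1907, 1748, 828 and 2015 against 122, 219 and 604, a difference of 2.61 ± 0.47 (SE), adjusted p = 8.5e-04 (3.23 without Eo.BL.v2 5). MC.PC 5 was the lowest mast cell array for both Dusp1 and Egr1. Fosb measured 182, 221 and 1529 in eosinophils and 941, 353, 295 and 256 in mast cells and was not called. Eo.BL.v2 5 and MC.PC 0 thus carried the highest Fosb of their groups, and the part of handling in these differences was not tested. Of 9 MHC class II genes, 4 passed the filter and 1, H2-Oa, was called, higher in eosinophils by 1.31 ± 0.21 (SE), adjusted p = 3.2e-04 (median -0.11), and 2 were called without MC.PC 5, Eo.BL.v2 2 or Eo.BL.v2 5.

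Markers of other cells were then read on each array. Among 12 neutrophil markers measured, 10 passed the filter and all 10 were called higher in eosinophils. Members at background in mast cells could pass only through the eosinophil group, and so could be called in that direction only. Their summed level was 639 to 872 in mast cells, where S100a8, Ngp, Mmp8, Cxcr2 and Retnlg lay at background on every array, and 14883 to 18960 in eosinophils, where no member lay at background on all 3 arrays. Retnlg and Mmp9, given above, made up most of the eosinophil sum, and other members differed widely between the eosinophil arrays. S100a8 measured 78.9, 247 and 489 on Eo.BL.v2 2, 3 and 5, S100a9 156, 325 and 1507, Ngp 125, 237 and 1179, Lcn2 78.4, 522 and 1090.3 and Camp 111, 218 and 426, each highest on Eo.BL.v2 5. The calls of S100a8, S100a9 and Ngp held without that array, with smaller differences of 1.86, 1.58 and 2.27 (3.18, 3.22 and 3.89 without Eo.BL.v2 2 instead; with mast cells at background, at least 3.65-fold for S100a8 and 5.63-fold for Ngp over all 7 arrays), and those of Lcn2 and Camp did not (adjusted p = 0.086 and 0.13). Lcn2 also lost its call without Eo.BL.v2 3 (0.072) or without the 2 arrays with blood as source (0.079). Camp lost it without the latter (0.065), or without any of MC.PC 0, 4 and 6 and Eo.BL.v2 3 (0.053 to 0.079). Ctsg, given above among the mast cell proteases and also a neutrophil granule gene, shared the pattern in eosinophils, and its difference was 4.30 ± 0.25 without Eo.BL.v2 5. Cxcr2, a neutrophil chemokine receptor, measured 66.3, 100.3 and 456 on these arrays, and was too dim to be tested without Eo.BL.v2 5. Its group mean was at least 2.49-fold over mast cells, although Eo.BL.v2 2 lay close to background. The part of neutrophil RNA in the eosinophil values was not tested.

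Eo.BL.v2 5 differed in further genes. It was also the eosinophil array without MHCII exclusion, and the part of the sort in these differences was not tested. Retnla, which encodes the resistin-like molecule of alternatively activated cells, measured 122, 144 and 1519 on Eo.BL.v2 2, 3 and 5 and 36.0, 24.7, 30.4 and 24.0 in mast cells, a difference of 3.39 ± 0.67 (SE), adjusted p = 0.0017, at least 5.14-fold. This difference leaned on Eo.BL.v2 5: it was 4.04 without Eo.BL.v2 2, while without Eo.BL.v2 5 the gene was too dim to be tested and its means differed by 2.22. Cd74, the invariant chain of MHC class II, measured 45.0, 63.6 and 575 there and 444, 191, 172 and 110.1 in mast cells, highest on MC.PC 0. Cd74 was not called (0.76 ± 0.73 (SE), adjusted p = 0.44), but without Eo.BL.v2 5 it was called higher in mast cells by 1.90 (adjusted p = 0.0067). On Eo.BL.v2 2, the T cell genes Cd3e, Cd3g and Cd8b1 stood at 385, 228 and 289.7, against 149.6, 63.3 and 119.6 on Eo.BL.v2 3 and 146, 51.2 and 83.4 on Eo.BL.v2 5. This is the array with the highest Cpa3 and Gzmb. Of 11 T cell markers, 6 passed the filter and 1, Cd8b1, was called higher in eosinophils (adjusted p = 0.036), but not without the 2 arrays with blood as source (0.14) or without any of MC.PC 0, 4 and 6 (0.056 to 0.086), and it was too dim to be tested without Eo.BL.v2 2. The list summed to 1019 to 1298 in mast cells and 1115 to 1924 in eosinophils.

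Of 11 macrophage markers, 7 of the 8 that passed the filter were called higher in eosinophils and none in mast cells, with sums of 1044 to 1336 in mast cells and 6902 to 13525 in eosinophils. Adgre1 and Lyz2 made up most of the latter sum. Lyz2 measured 3518, 1122 and 5152 in eosinophils and 201, 585, 300.4 and 456 in mast cells, a difference of 2.94 ± 0.48 (SE), adjusted p = 4.3e-04, which was 3.58 without Eo.BL.v2 3. C1qb measured 493, 458 and 506 in eosinophils and 146, 82.4, 124 and 85.4 in mast cells, Fn1 1570.1, 703 and 2857 in eosinophils and 157, 82.9, 96.8 and 77.4 in mast cells, and the macrophage genes Mertk, Mrc1 and Fcgr1 were at 103 or below on all 7 arrays. In mast cells, Adgre1, Mrc1 and Vsig4 lay at background on every array. B cell RNA was read through 9 markers, of which only Cd79b passed the filter: it measured 859, 709, 502 and 483 in mast cells and 164, 226 and 132 in eosinophils, a difference of 1.87 ± 0.26 (SE), adjusted p = 1.5e-04, while Cd79a and Ms4a1 were at 161, 64.7, 66.8 and 49.8 and 83.6, 35.8, 43.6 and 33.7 in mast cells, highest on MC.PC 0. Peritoneal macrophage markers, Fn1 among them, summed to 747 to 986 in mast cells and 7193 to 14308 in eosinophils. Monocyte markers summed to 699 to 817 and 3106 to 6267. Of those that passed the filter, 5 of 6 and 3 of 5 were called higher in eosinophils, and 1 monocyte marker in mast cells. Platelet and megakaryocyte markers summed to 1360 to 1594 and 1898 to 3422, with 2 of 6 called each way. The part of these other cells in the differences was not tested.

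**Figure D5:**
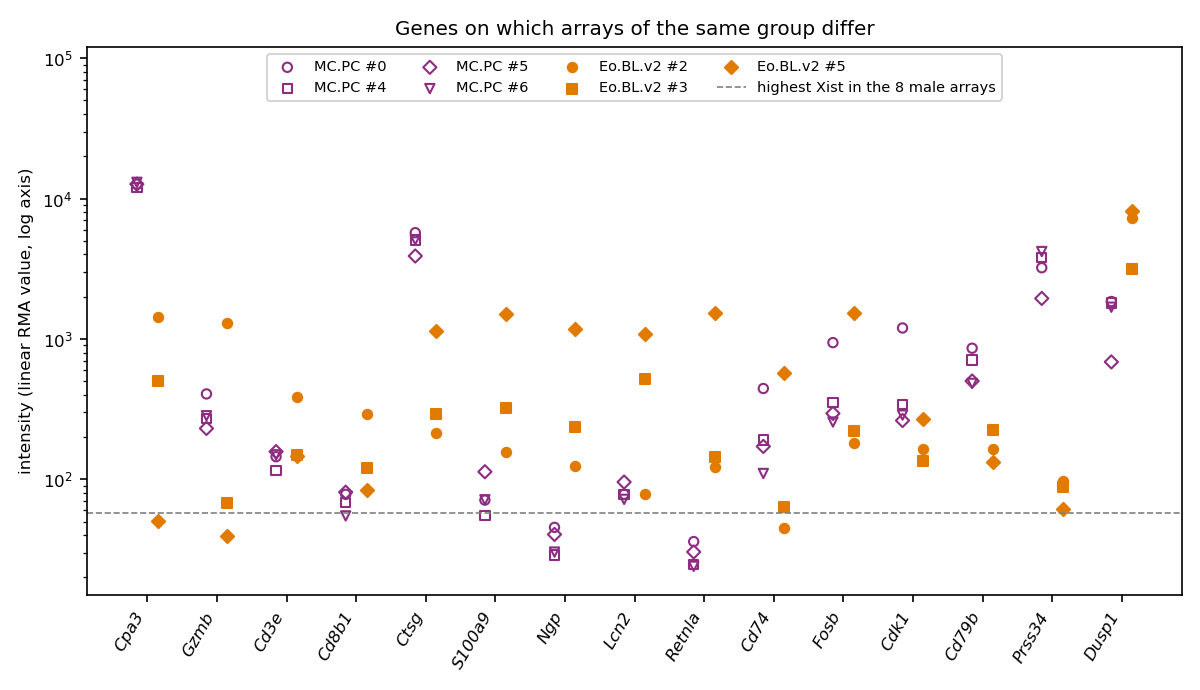
Intensity on each array, on a log axis, of 15 genes on which arrays of the same group differ, with open purple symbols for the 4 mast cell arrays and filled orange symbols for the 3 eosinophil arrays. Eo.BL.v2 2 is the highest eosinophil array for Cpa3, Gzmb, Cd3e and Cd8b1, Eo.BL.v2 5 for Ctsg, S100a9, Ngp, Lcn2, Retnla, Cd74 and Fosb, and MC.PC 0 is the highest mast cell array for Cdk1, Fosb and Cd74.

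The basophil array shared genes with each group. It was nearer the mast cell mean than the eosinophil mean for 720 of the 2291 probe sets at least 2-fold higher in mast cells (31.4%), and nearer the eosinophil mean for 648 of the 1155 at least 2-fold higher in eosinophils (56.1%). Of the 12 genes with the largest difference in each direction, it was nearer the mast cells for 3 and nearer the eosinophils for 5. With mast cells it held, for example, the IgE receptor genes Fcer1a (3886) and Ms4a2 (6484), Cpa3 (6601), Hdc (5204), Gata2 (3481) and Cd200r3 (3237), but not Kit (179), Tph1 (87.0), Mitf (113), Mrgprb2 (26.2) or Hpgds (70.0). With eosinophils it held, for example, Ccl6 (9064), C3ar1 (8604), Cyp4f18 (5109), Alox5ap (5505), Alox15 (3341) and Cxcr4 (5054), but not Retnlg (109), F5 (109.7), Il5ra (36.7) or Cebpe (108). Ccr3 and Siglecf stood in between, at 1901 and 659.6. Ifitm1 and Mcpt8 exceeded both groups, at 8247 and 2731, against at most 408 and 242 on the other 7 arrays. With 1 array, these are levels without a test.

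Other arrays of the same lineages were read for the same genes, also as levels. On 3 arrays of skin mast cells (MC.Sk), 1 of digested peritoneal cells (MC.digest.PC) and 1 of mast cells with muscle as source (MC.To), all 12 genes highest in peritoneal mast cells were on the mast cell side of the midpoint. The single array of eosinophils from fat (EO.AT.v2) was on the eosinophil side for all 12 genes highest in blood eosinophils. Of the 2291 probe sets at least 2-fold higher in peritoneal mast cells, 74.5% were on the mast cell side in skin, 97.9% in the digest and 69.8% in muscle. Of the 1155 at least 2-fold higher in blood eosinophils, 70.6% were on the eosinophil side in fat. Skin mast cells departed for Prss34 (92.3 to 115 against 1943 to 4191 in the peritoneum), Alox5 (89.3 to 104 against 3112 to 6608) and Pla2g7, as given above, and for C3ar1, at 513 to 598 in skin against 47.8 to 69.7 in the peritoneum.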

How the data were processed

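RNA of the sorted cells was hybridised to Affymetrix mouse gene arrays after extraction with TRIzol, per the labels' protocols. The authors deposited 1 normalized intensity per probe set and array on a linear scale; Affymetrix Power Tools and RMA are named in the submitters' processing notes, with no version or setting (not given in the sources used here).

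Log2 of the deposited intensity was taken, and MC.PC minus Eo.BL.v2 was fitted with limma 3.58.1 in R 4.3.3 (lmFit and eBayes on the 7 arrays, no covariate, two-sided, Benjamini-Hochberg over the probe sets tested). A probe set was tested where the mean of its brighter group was at least 132 (the median intensity of the 7 arrays over all probe sets), which 13964 of 24922 did. The script was tested on simulated data with 200 changed genes. Of the probe sets, 21425 had 1 gene symbol, 1399 several and 2098 were not listed in the annotation, so some members of gene families were not analysed here. A gene was read through its brightest probe set over the 7 arrays.

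Named genes were the 12 largest called differences in each direction without overlap (predicted genes, small RNAs and receptor segments left out), members of 24 gene lists and 14 marker lists led by the largest differences and the defining genes, genes of the sort labels, and members on which arrays of a group differed most. The members and lists were chosen with earlier results of these data known. Alternatives covered the filter, normalization, offset, arrays in the fit, variance model, array weights and each array left out. Of 177 genes named, 140 were in the RefSeq promoter table.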

Additional observations from a re-analysis of the deposited data

Results flagged for a closer look

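For 9 of 177 named genes, a single mast cell array stood apart from the other 3, measured as its gap to the nearest array over the range of the group and set against Dixon's 95% critical value for 4 arrays. For independent and normally distributed values, about 1 such gene in 20 would arise by chance, and 9 of 177 is near that rate. The genes share the same 4 arrays and are not independent, so the count cannot decide whether chance accounts for it. Some genes were also named because their arrays differed. The eosinophil group of 3 arrays was too small to be examined. MC.PC 5 was low for Gata1 (ratio 0.877, 351 against 577 to 619), for Mrgprb13 (0.973, 111 against 154 to 155), for Egr1 (0.84, 828 against 1748 to 2015) and for Dusp1 (0.906, 686 against 1683 to 1848), and high for Ptgdr2 (0.892, 124 against 93.0 to 96.0). MC.PC 0 was low for Mrgprb1 (0.833, 3891 against 5957 to 6489) and Myb (0.899, 3907 against 4991 to 5130). MC.PC 6 was high for the chaperones Hspa5 (0.85, 2226 against 1083 to 1207) and Canx (0.954, 6808 against 5329 to 5390). The cause was not tested.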

How the results depend on the processing

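The number of probe sets called was 5656 and ranged from 4550 to 5787 when 1 array was left out. It was 9225, with 3618 higher in eosinophils, when all arrays of the series shared a single fit, and 1206 were higher in eosinophils without the 2 mast cell arrays labelled blood. No paired analysis was possible because the groups share only 1 replicate number. Over the 164 named genes that passed the filter, 2523 of 2595 gene and setting pairs kept direction and side of the threshold, 30 lost the call, 19 gained one and 23 changed sign, all 23 for genes not called. With the stricter filter on dim probe sets, members called numbered 1 for eosinophil granule proteins, 11 for chemoattractant receptors, 5 for pattern recognition, 0 for MHC class II (fewer genes tested) and 4 for interferon response, and with no filter 5 for eosinophil granule proteins. MHC class II gave 2 in the fit of 4 groups (with skin mast cells and blood neutrophils added) and of all arrays, and 1 to 2 with 1 array left out. Lysosome gave 21 in the fit of all arrays. Signs changed with quantile normalization for Csf2rb (-0.085), Fcgr3 (-0.042), Pla2g7 (-0.13), Fosb (-0.14) and Il13 (-0.037), with an offset for Fosb (-0.017), with array weights for Fosb (-0.23) and Il13 (-0.13), and without the arrays labelled blood for Gata1 (0.022) and Il13 (-0.051). With 1 array left out, values ranged for Csf2rb from -0.24 to 0.17, Itga2 from -0.14 to 0.25, Gzmb from -0.024 to 2.49, Fosb from -0.55 to 0.99, Il13 from -0.16 to 0.15 and Ifitm1 from -0.31 to 0.26, and the cause was not tested. With quantile normalization, 3 of 24 list medians changed sign (cytokine receptors, exocytosis, and cytokines), and no list median moved by more than 0.28.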
